A study of Mus musculus with 20 samples.

Results

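Macrophages were examined through 10 genes: Clec4f, Vsig4, Timd4, Marco, Cd5l, Adgre1, C1qa, C1qb, C1qc and Csf1r. They were chosen by symbol and joined to the deposited counts by Ensembl identifier, and all 10 were found among the 57010 genes listed. Livers and kidneys were sequenced as bulk RNA from 10 UM-HET3 males, 12 months old, of a stock bred so that no 2 animals are genetically alike. Over 28 days, 6 mice received 7c from osmotic minipumps under the skin, and 4 mice received the same pumps with vehicle (50% DMSO and 50% PEG300). The 7c group was given repsox, tranylcypromine, DZNep, CHIR99021, forskolin and TTNPB at 0.1 mg/kg/day each, together with valproate at 1 mg/kg/day. The solvent, the pump and its placement were shared by both groups, and no untreated mice were analysed here.

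Kupffer cells are the resident macrophages of the liver. They sit inside the sinusoids, take up particles, bacteria and dying blood cells from the portal blood, and depend on signalling through the CSF1 receptor. The kidney holds resident macrophages of its own, which share general macrophage genes with Kupffer cells but not the genes by which Kupffer cells are recognised. The 10 genes cover both kinds. Clec4f (C-type lectin), Vsig4 (a receptor for complement C3 fragments), Timd4 (a receptor for phosphatidylserine on dying cells), Marco (a class A scavenger receptor) and Cd5l (a secreted scavenger protein) are largely restricted to tissue macrophages such as Kupffer cells. Adgre1 encodes F4/80, a surface marker of mouse macrophages. C1qa, C1qb and C1qc encode the chains of C1q, which starts the classical complement pathway, and Csf1r encodes the receptor for CSF1 and IL34.

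In bulk tissue, fewer macrophages and less of a transcript per macrophage cannot be told apart, and this holds for every value that follows. Total counts were 28383359 to 34153084 per liver and 27855849 to 64872451 per kidney, and each 7c liver had a lower total than each vehicle liver. As a check of the tissue labels, the 8 listed hepatocyte genes had a median log2 fold change (liver over kidney) of 12.04, and the 8 kidney tubule and podocyte genes had one of -13.65. Most of the latter were tested only through the kidneys, where they are high. The liver of 7c animal 6 stood apart from the other 9. Its 6 skeletal muscle genes summed to 655 CPM (counts scaled to a common library size), against 0.458 to 2.06 CPM in the others, and results that rest on it are given with and without it.

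The C1q genes lie side by side. In GRCm39, C1qb (chr4:136606009-136613511), C1qc (chr4:136616466-136620376) and C1qa (chr4:136623223-136626161) are on the minus strand within 20.15 kb, separated by gaps of 2.95 and 2.85 kb. The others are spread over the genome: Clec4f at chr6:83621524-83633169, Vsig4 at chrX:95290807-95337044, Timd4 at chr11:46701620-46735177, Marco at chr1:120402267-120432753, Cd5l at chr3:87265182-87278380 and Adgre1 at chr17:57665573-57790527, with Csf1r on another chromosome. Exons of Csf1r share 1461 of their 7361 bases with Hmgxb3, a gene on the opposite strand with 308 to 569 counts per liver and 505 to 1816 per kidney. The strand setting of the counting is not given in the sources used here. Reads from the shared bases could have been added to Csf1r or lost from it. C1qb and C1qc overlap a long noncoding RNA gene on the opposite strand, which had no row in the counts, and carry the same limit.

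Csf1r was left out of the promoter search. Promoter windows from RefSeq (build GRCm38.p6), each 250 bases before to 50 bases after a gene's start, were used for 7 of the 10 genes, and each matched a single place in GRCm39. They were searched on both strands for GAGGAA, the core letters bound by the macrophage factor PU.1, or its reverse complement TTCCTC. A match was present in 5 of the 7 windows, against 28.3% of 32851 windows in the whole table. The windows of Clec4f and Timd4 held no match, Vsig4 held 2 and the others held 1 each. The windows of the C1q neighbours, which moved together in both tissues, and of Clec4f, Cd5l and Vsig4, which were nearly absent from kidney, are shown on their own strand, with matches in capitals.
C1qb, chr4:136613462-136613761 (minus strand): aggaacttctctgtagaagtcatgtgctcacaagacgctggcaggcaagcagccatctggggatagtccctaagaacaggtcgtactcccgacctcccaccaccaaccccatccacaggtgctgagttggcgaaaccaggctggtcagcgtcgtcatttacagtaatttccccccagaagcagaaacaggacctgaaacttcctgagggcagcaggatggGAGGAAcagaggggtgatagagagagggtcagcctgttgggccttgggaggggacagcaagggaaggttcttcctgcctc
C1qc, chr4:136620176-136620475 (minus strand): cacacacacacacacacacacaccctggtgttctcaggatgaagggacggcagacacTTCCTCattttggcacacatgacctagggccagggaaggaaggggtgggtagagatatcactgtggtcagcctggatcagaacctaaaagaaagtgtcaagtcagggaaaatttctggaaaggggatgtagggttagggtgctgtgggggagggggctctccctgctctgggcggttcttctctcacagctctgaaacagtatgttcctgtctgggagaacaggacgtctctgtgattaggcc
Clec4f, chr6:83633049-83633348 (minus strand): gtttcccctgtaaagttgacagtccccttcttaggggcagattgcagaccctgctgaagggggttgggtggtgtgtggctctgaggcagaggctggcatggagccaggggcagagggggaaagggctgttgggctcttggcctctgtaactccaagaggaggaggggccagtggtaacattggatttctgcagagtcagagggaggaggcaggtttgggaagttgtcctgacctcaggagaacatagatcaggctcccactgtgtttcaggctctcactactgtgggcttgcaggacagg
Cd5l, chr3:87264938-87265237 (plus strand): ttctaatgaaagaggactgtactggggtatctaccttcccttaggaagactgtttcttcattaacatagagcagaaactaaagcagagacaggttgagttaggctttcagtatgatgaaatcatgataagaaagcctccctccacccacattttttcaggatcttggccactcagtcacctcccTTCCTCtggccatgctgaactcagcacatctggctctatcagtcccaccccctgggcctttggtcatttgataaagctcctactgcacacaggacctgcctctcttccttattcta
Vsig4, chrX:95336995-95337294 (minus strand): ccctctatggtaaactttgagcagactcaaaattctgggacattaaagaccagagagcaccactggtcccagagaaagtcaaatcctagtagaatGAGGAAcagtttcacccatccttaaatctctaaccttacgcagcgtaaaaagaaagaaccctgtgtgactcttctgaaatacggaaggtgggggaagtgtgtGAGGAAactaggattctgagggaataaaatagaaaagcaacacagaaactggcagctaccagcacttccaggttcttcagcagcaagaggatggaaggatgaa

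The matches lay at different distances from the start. C1qb had GAGGAA from base -30, counted from the window's start site, and Vsig4 had it from bases -155 and -53. In C1qc and Cd5l the letters read TTCCTC, from bases -193 and -66. A match of letters does not show that a factor binds there.

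The first comparison asked where the genes were expressed. All 10 differed between liver and kidney by edgeR's quasi-likelihood test, 9 of them higher in liver and Csf1r higher in kidney. Clec4f, Vsig4, Timd4, Marco and Cd5l did not pass the count filter in kidney and entered the test only through the livers, where they are high, so their calls follow in part from that choice. Of the 5 genes that passed in both organs, 4 were higher in liver. Differences between the organs were common, since 71.6% of 18598 tested genes passed the same threshold, 33.2% higher in liver and 38.4% higher in kidney. Scaling to raw library totals in place of TMM moved the median log2 fold change (liver over kidney) of all tested genes from -0.12 to -0.75. The counts of all genes then became 3194 higher in liver and 11362 higher in kidney, in place of 6177 and 7138, while the split among the 10 genes stayed at 9 and 1.

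Kupffer cell markers were almost undetected in kidney, and their counts in liver ranged widely. Clec4f counts summed to 24320 over the 10 livers and to 12 over the 10 kidneys, a difference of 11.70 on the log2 scale (SE 0.41). Only 4 kidneys had any Clec4f count, with a highest value of 4 counts. Cd5l followed, with 17788 counts in livers and 20 in kidneys and a log2 fold change of 10.61 (SE 0.44). Vsig4 summed to 5936 and 34 counts (log2 fold change 8.49, SE 0.49), and Timd4 to 1563 and 41 counts (6.76, SE 0.50). For each of these 4 genes, every liver was above every kidney, as was so for 18.1% of all tested genes and for 65.1% of the 849 genes that, like them, passed the filter in liver only.

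Marco was scarce even in liver, with 297 counts over 10 livers, and had 0 counts in all 10 kidneys. Set against 3 counts over the kidneys, the limit that a count of 0 allows, its pooled CPM was at least 124-fold higher in liver. One liver, from vehicle animal 4, also had 0 counts of Marco, so 9 of 10 livers were above the kidneys. The 4 pooled ratios on raw library totals were 2534-fold for Clec4f, 1112-fold for Cd5l, 218-fold for Vsig4 and 47.7-fold for Timd4. Counting error alone leaves the kidney level of Clec4f between 0.0159 and 0.0539 CPM (95% interval) and that of Timd4 between 0.0756 and 0.143 CPM. Low counts were mostly even (78.6% of counts from 1 to 20). If each fragment was counted more than once, the Marco bound would be lower and these intervals wider.

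The genes shared by macrophages of both organs differed much less. On CPM scaled jointly over both tissues, Adgre1 averaged 10.5 ± 4.96 in liver and 2.58 ± 0.957 in kidney (SD, n = 10 each), a log2 fold change of 1.99 (SE 0.27, adjusted p = 9.05e-07). C1qc averaged 26.6 ± 9.50 and 7.71 ± 2.48 CPM (log2 fold change 1.83, SE 0.22), C1qa 34.1 ± 10.5 and 12.2 ± 4.38 CPM (1.50, SE 0.22), and C1qb 27.4 ± 7.97 and 11.6 ± 3.91 CPM (1.24, SE 0.20). The C1q groups came close to each other, and 8 of 10 livers were above every kidney for C1qa and C1qb and 9 of 10 for C1qc. With raw library totals, the log2 fold changes of C1qa and C1qb fell to 0.91 and 0.64 and stayed past the threshold.

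Csf1r was the exception. It averaged 41.7 ± 15.3 CPM in liver and 61.4 ± 6.97 CPM in kidney on the joint scale, a log2 fold change of -0.56 (SE 0.17, adjusted p = 0.00531). On this scale 7 of 10 livers were below every kidney, and on raw library totals all 10 were, with a log2 fold change of -1.18. With vehicle samples alone the fold change was -0.61 and missed the threshold by edgeR (adjusted p = 0.0657), at the upper end of a range of 3.63e-06 to 0.0657 over the alternatives. Csf1r and the C1q genes are usually expressed by the same macrophages, yet the ratio of Csf1r to C1qa CPM was 1.23 ± 0.232 in liver and 5.56 ± 1.73 in kidney (SD, n = 10). The lowest kidney ratio, 3.00, exceeded the highest liver ratio, 1.78. The overlapping Hmgxb3 also had more counts per library in kidney, and its part in this difference was not tested.

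**Figure D1:**
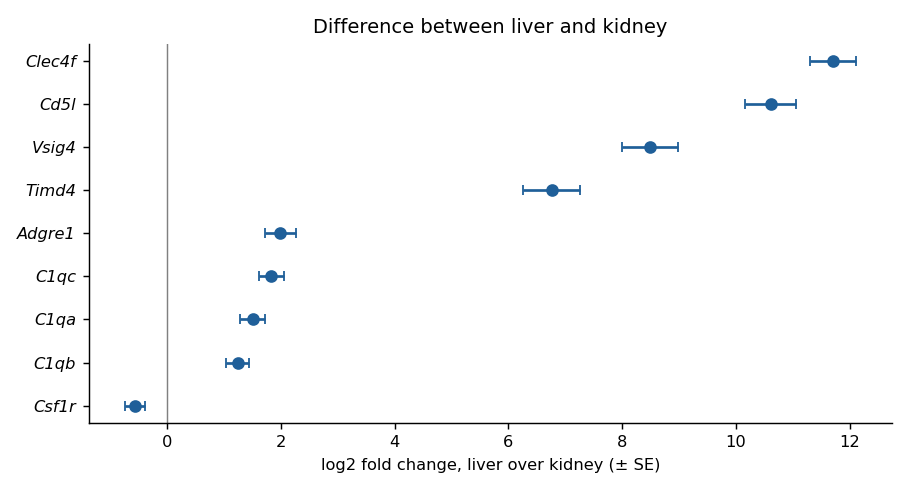
Fitted log2 fold change of liver over kidney for 9 of the 10 genes (points; bars are ± SE, 10 livers and 10 kidneys), with Marco left out because it had 0 counts in all kidneys. Clec4f and Cd5l lie above 10, the C1q genes and Adgre1 between 1.24 and 1.99, and Csf1r at -0.56.

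Levels of different genes can be compared only per length, as TPM (reads per base of all annotated exons of a gene, scaled to a common total per sample). In liver, mean TPM ran from Cd5l (101 ± 43.4, SD, n = 10) through Clec4f (76.1 ± 29.3), C1qa (62.4 ± 20.9), Vsig4 (46.3 ± 22.7), C1qc (27.4 ± 10.3), Csf1r (16.7 ± 6.59), C1qb (12.9 ± 4.00), Adgre1 (8.80 ± 4.50) and Timd4 (4.61 ± 1.90) to Marco (1.84 ± 1.79). Of the 9 steps between neighbours, only C1qc to Csf1r and Timd4 to Marco were larger than the larger SD of the pair. In kidney, Csf1r (34.5 ± 2.99 TPM) and C1qa (30.7 ± 8.75 TPM) did not differ beyond that spread, while C1qc (11.1 ± 3.11 TPM), C1qb (7.53 ± 1.92 TPM) and Adgre1 (3.10 ± 1.27 TPM) each stood below the gene before. Genes of a tissue were measured in the same animals, so these SDs do not show whether an order held within each animal. On the length of all annotated exons, Vsig4 was above C1qc, Csf1r above C1qb and Adgre1 above Timd4 in every liver. Parts of the orders in both tissues rest on the length used. With the Ensembl canonical transcript as the length, chosen after seeing the data, Clec4f (64.9 TPM) stood above Cd5l (57.5 TPM) in liver, Vsig4 was at 27.5, Adgre1 at 5.27 and Marco at 1.06 TPM, and C1qb reached 18.1 TPM in liver. In kidney C1qa (27.7 TPM) was then above Csf1r (25.7 TPM), and C1qb (11.3 TPM) above C1qc (10.4 TPM).

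Most listed Kupffer cell and pan-macrophage genes were also higher in liver. Only genes that passed the count filter in both organs are counted here, 14163 in all, of which 37.8% were called higher in liver and 32.4% higher in kidney. Of 12 other Kupffer cell genes, 10 were higher in liver and 1 was higher in kidney, with a median log2 fold change of 3.10. They included C6 (9.54, SE 0.29), a terminal complement component that hepatocytes also make, Fcna (6.83, SE 0.32), a ficolin, Hpgd (3.96, SE 0.15), which breaks down prostaglandins, and Slc40a1 (2.32, SE 0.10), the iron exporter ferroportin. The gene higher in kidney was Slc16a9, a carnitine transporter (-4.90, SE 0.27). Of 18 pan-macrophage genes, 11 were higher in liver and 4 in kidney (median 0.83), among them Mrc1 (4.27, SE 0.22), the mannose receptor that sinusoidal endothelium also carries, and Irf8 (-1.11, SE 0.14), a transcription factor of myeloid cells. Of 6 monocyte and recruited macrophage genes, 0 were called higher in liver and 3 were higher in kidney by edgeR (50% of them), and these included Ly6c2 (-2.90, SE 0.38) and Ccr2 (-1.64, SE 0.26), both markers of inflammatory monocytes.

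The ligands of the CSF1 receptor divided between the organs. Csf1 was higher in liver (log2 fold change 0.97, SE 0.15, adjusted p = 3.82e-06) and Il34 was higher in kidney (-3.21, SE 0.21, adjusted p = 7.12e-12). In all, 5 of 11 listed genes of the CSF1 receptor pathway were higher in liver and 6 in kidney, Csf1r included (45.5% and 54.5%). Among 12 complement partners of C1q, 10 were higher in liver and 2 in kidney. The proteases that act with C1q, C1ra (4.81, SE 0.10) and C1s1 (5.68, SE 0.12), and the central component C3 (7.94, SE 0.22), all made by hepatocytes, exceeded the C1q genes in their liver-to-kidney difference. Of 8 genes of lipid-associated macrophages, 3 were higher in liver and 5 in kidney.

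The second comparison was 7c against vehicle in liver, and none of the 10 genes was called. By edgeR's quasi-likelihood test each had an adjusted p of 1.00, 0 of 10 had an unadjusted p under 0.05, and DESeq2, limma-voom and edgeR's likelihood ratio test also called 0. The background was low, with 0.00666% of 15012 tested genes called (1 gene) and 565 at an unadjusted p under 0.05. Of the 10 fold changes 6 were above 0, with a median of 0.09 on the log2 scale, against 0.00 over all genes. The median was -0.090 without vehicle animal 1 (2 of 10 above 0) and 0.25 without vehicle animal 2 (8 of 10). For all 10 genes the range of the 7c livers overlapped that of the vehicle livers. The share of all tested genes with such an overlap was not counted, so this is a description only.

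Clec4f, the most specific of these markers, was at 45.2, 113, 99.4 and 88.0 CPM in the 4 vehicle livers. In the 6 livers given 7c its lowest, median and highest values were 33.4, 69.3 and 112 CPM. The vehicle liver at 45.2 CPM lay among the 7c values, and only 1 7c liver lay below the vehicle range (log2 fold change -0.30, SE 0.29, exact permutation p = 0.419, two-sided). Vsig4 was at 13.4, 36.4, 17.8 and 19.5 CPM with vehicle, and between 4.77 and 26.4 CPM with 7c (median 17.5). Of the 7c livers 2 lay below the vehicle range and none above it (-0.40, SE 0.37, exact permutation p = 0.400). Without vehicle animal 2, the highest, the Vsig4 fold change was -0.028.

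Cd5l was at 23.0, 86.4, 77.9 and 55.4 CPM with vehicle, and its 7c livers ran from 21.3 to 77.8 CPM around a median of 54.7. These ranges nearly coincided (-0.20, SE 0.35). Timd4 was at 2.77, 6.47, 4.60 and 4.15 CPM with vehicle, and from 2.60 to 8.30 CPM with 7c, with a median of 5.37. Here 2 of the 7c livers were above the vehicle range and 1 was below it (0.23, SE 0.33). Marco, at 1.06, 0.860, 0.509 and 0 CPM with vehicle and 0.0361 to 3.15 CPM with 7c, had the largest fitted change and the largest error of the 10 (0.98, SE 0.91).

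The general macrophage genes were as close. C1qa was at 15.6, 31.0, 28.3 and 32.6 CPM in vehicle livers, and the 7c livers had 11.6 to 39.1 CPM with a median of 27.8 (log2 fold change 0.04, SE 0.28). C1qb ranged from 11.5 to 27.6 CPM with vehicle and from 13.5 to 32.6 CPM with 7c (0.17, SE 0.25), and C1qc from 12.1 to 26.6 and from 9.17 to 33.8 CPM (0.15, SE 0.30). Csf1r was at 20.8, 55.0, 32.1 and 32.5 CPM with vehicle and ran from 16.4 to 46.1 CPM with 7c (-0.12, SE 0.29). Adgre1 lay between 4.95 and 12.3 CPM with vehicle and between 5.05 and 17.0 CPM with 7c (0.16, SE 0.35). With standard errors of 0.25 to 0.91, moderate changes of these genes were not detectable in 4 and 6 livers.

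**Figure D2:**
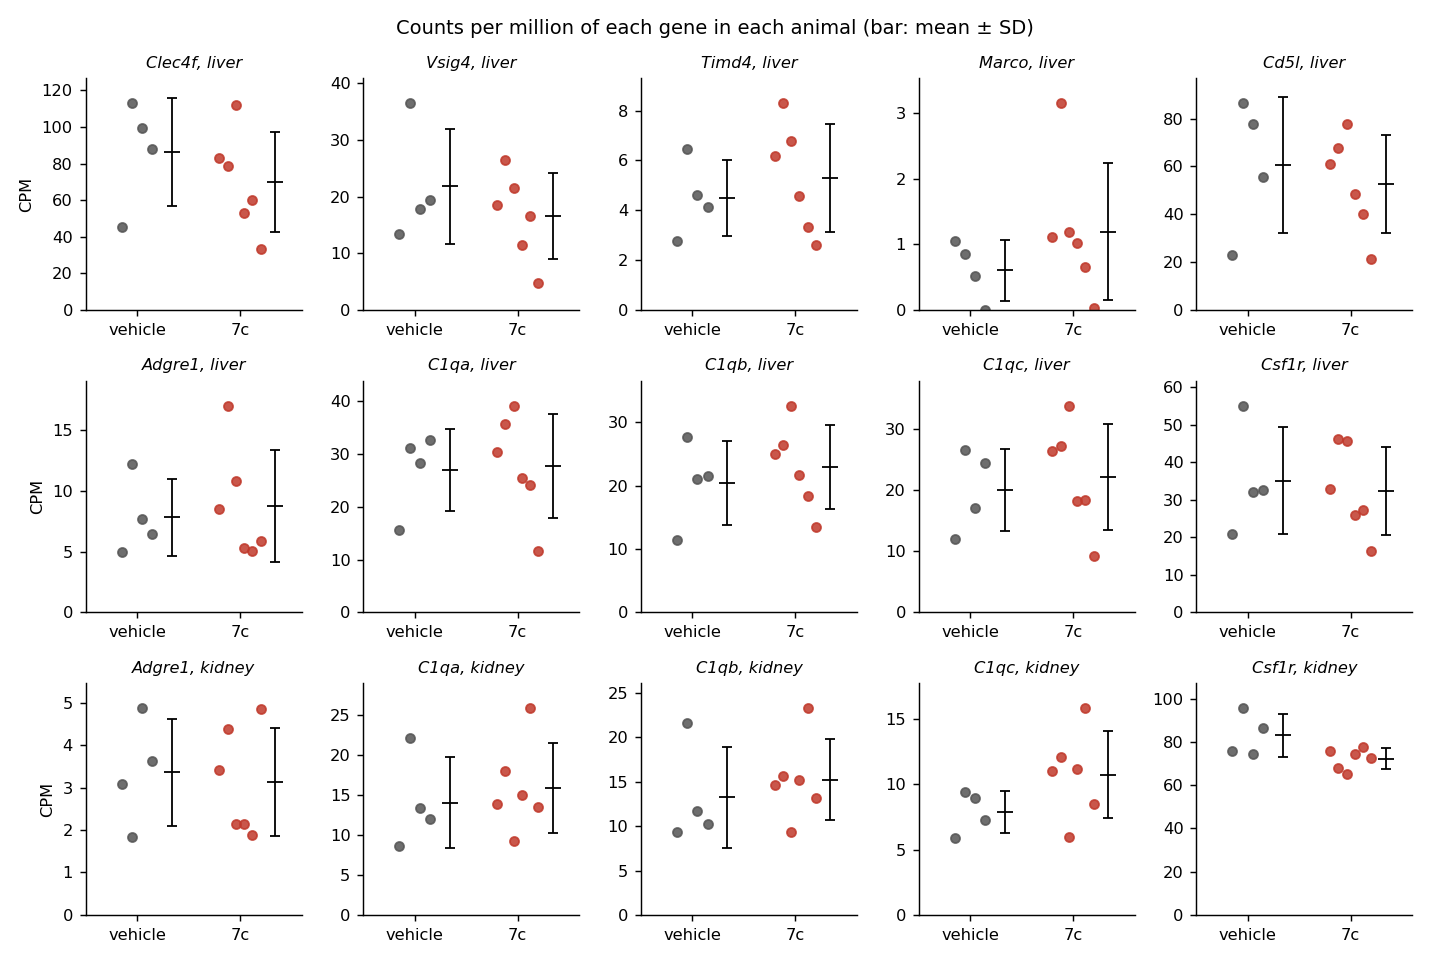
CPM of each gene in each animal (points), scaled within each tissue, with mean ± SD beside each group (4 vehicle and 6 7c animals per tissue); the top rows show liver and the bottom row the 5 genes tested in kidney. The vehicle and 7c ranges overlap in every panel.

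Leaving out the liver of 7c animal 6 called 0 of the 10 genes as well. Without it the median log2 fold change over the 10 genes was 0.23, 7 of 10 were above 0, Clec4f was at -0.16 (SE 0.25), Cd5l at -0.04 (SE 0.31), Vsig4 at -0.20 (SE 0.28), and Csf1r changed sign to 0.02 (SE 0.26). That liver was the lowest of the 6 7c livers for 9 of the 10 genes, the exception being Adgre1. It also had the lowest summed level of sinusoidal endothelial genes, 240 CPM against 320 to 485 CPM in the other 9, and the highest of hepatocyte genes, 111944 CPM against 79535 to 104333 CPM. Stellate cell genes were lowest too, at 347 CPM against 359 to 535 CPM. Other Kupffer cell genes summed to 720 CPM, within the 600 to 781 CPM of the others. Pan-macrophage genes were highest, at 480 CPM against 257 to 427 CPM, a sum that includes Lyz2 at 223 CPM.

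Other myeloid genes went both ways there. They were chosen after their values were seen. Lyz2, lysozyme, was at 223 CPM against 34.8 to 97.2 CPM in the other 9 livers, Itgam, the integrin CD11b, at 6.28 CPM against 0.0568 to 1.09 CPM, and Chil3, a chitinase-like protein of some macrophages and monocytes, at 7.47 CPM against 0 in all 9 others. Cd74, the invariant chain of MHC class II, was at 22.6 CPM, below the 34.8 to 88.7 CPM of the others, and Mpeg1 at 99.2 CPM lay within their range of 41.2 to 138 CPM. Acta1, skeletal muscle actin, was at 223 CPM there and at most 0.0722 CPM elsewhere. The part of these genes' sources in the low values of Clec4f, Vsig4 and the others in that liver was not tested.

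Ratios between genes take out differences that all macrophage genes share. In liver, Timd4 was 0.0530 ± 0.00744 of the Clec4f level in CPM with vehicle (SD, n = 4) and 0.0766 ± 0.0183 with 7c (SD, n = 6), and the ranges of 0.0463 to 0.0613 and 0.0551 to 0.106 overlapped. Clec4f was 3.19 ± 0.460 times C1qa with vehicle and 2.54 ± 0.335 times with 7c, and the highest 7c ratio of 2.87 lay within the vehicle range. Cd5l over Clec4f was 0.672 ± 0.128 and 0.751 ± 0.110. These CPM ratios are set by gene length as well as level and are compared only between animals.

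Surrounding genes gave as little with 7c in liver. Of 14 other Kupffer cell genes 0 were called and 0 had an unadjusted p under 0.05, with 6 above 0 and a median log2 fold change of -0.03. The most abundant of them, C6, averaged 249 ± 63.9 CPM with vehicle (SD, n = 4) and 228 ± 56.4 CPM with 7c (SD, n = 6). Of 18 pan-macrophage genes 12 were above 0, with a median of 0.22, and 0 were called. Mpeg1, the pore-forming perforin-2 of macrophages, averaged 71.9 ± 15.9 and 95.6 ± 39.8 CPM (0.41, SE 0.30). In the CSF1 receptor pathway 0 of 11 were called, including Csf1, at 10.6 ± 2.24 CPM with vehicle and 10.3 ± 2.72 CPM with 7c, and among complement partners 0 of 12. All 6 tested monocyte and recruited macrophage genes were above 0, with a median of 0.30, 1 unadjusted p under 0.05 and 0 called by edgeR. This list summed to 22.3 CPM in the liver of 7c animal 6 and to 5.57 to 14.0 CPM in the other 9. Without that liver 5 of 6 were above 0, with a median of 0.20, and the medians of the other Kupffer cell, pan-macrophage, CSF1 receptor pathway and complement lists were 0.07, 0.16, 0.09 and 0.04. Of the CSF1 receptor pathway 11 of 11 were then above 0, in place of 6, and 0 genes of these lists were called.

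**Figure D3:**
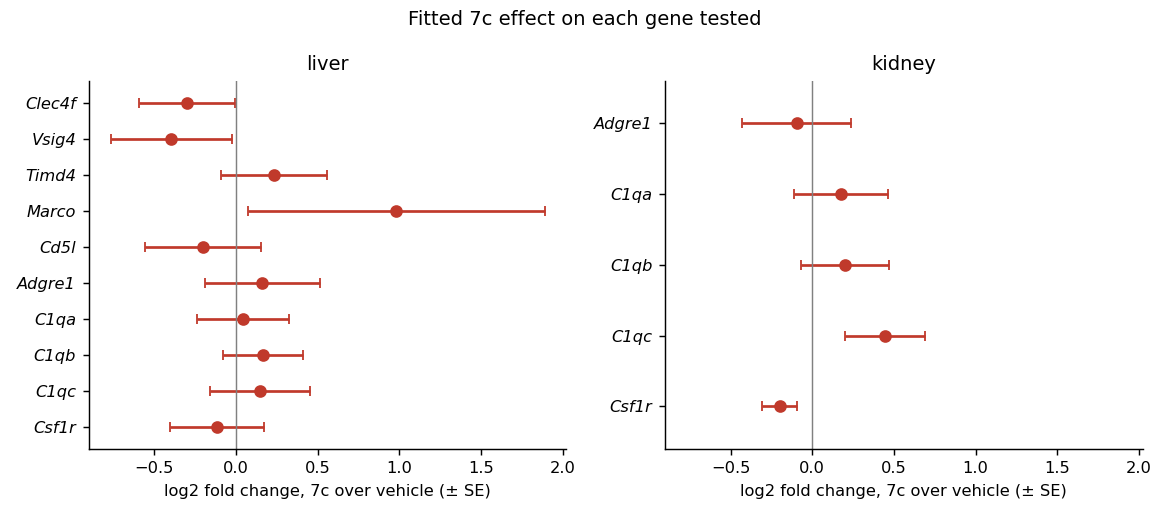
Fitted log2 fold change of 7c over vehicle (points) with ± SE (bars) for 10 genes in liver and the 5 genes that passed the count filter in kidney. The liver values run from -0.40 for Vsig4 to 0.98 for Marco, and the kidney values from -0.20 for Csf1r to 0.45 for C1qc.

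In kidney 5 of the 10 genes passed the filter of 10 counts in 50% of samples, and 0 were called with 7c. By edgeR 0% of 17749 tested genes were called there, and 463 had an unadjusted p under 0.05, none of them among the 5. DESeq2, limma-voom and the likelihood ratio test called 18, 2 and 14 genes, also none of the 5. The median log2 fold change of the 5 was 0.18, against -0.01 over all genes. It was 0.0041 without vehicle animal 1, 0.015 without 7c animal 5, 0.49 without vehicle animal 2 and 0.040 with the replicate block. The block rests on animal numbers that both groups have, so 7c animals 5 and 6 do not inform its value.

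C1qc and Csf1r came nearest to a difference, in opposite directions. C1qc was at 5.91, 9.41, 8.96 and 7.26 CPM in vehicle kidneys, and its 7c kidneys had a lowest, median and highest value of 5.93, 11.1 and 15.8 CPM. Thus 4 of 6 were above the vehicle range (log2 fold change 0.45, SE 0.24, adjusted p = 0.997 by edgeR, exact permutation p = 0.181). Csf1r was at 75.9, 95.5, 74.4 and 86.3 CPM with vehicle, and ran from 65.3 to 77.6 CPM with 7c around a median of 73.4. Here 4 of 6 were below the vehicle range (-0.20, SE 0.10, adjusted p = 0.997 by edgeR), and without vehicle animal 2 the fold change was -0.12. Its exact permutation p of 0.0571, the smallest of 20 such tests (10 genes in 2 tissues), became 0.930 after adjustment over them, and the smallest p that 6 against 4 animals allow is 0.00476.

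The other kidney genes overlapped more fully. C1qa was at 8.66, 22.1, 13.4 and 12.0 CPM with vehicle and from 9.19 to 25.8 CPM with 7c (0.18, SE 0.29). C1qb ranged from 9.36 to 21.7 CPM and from 9.38 to 23.3 CPM (0.20, SE 0.27), and Adgre1 from 1.84 to 4.87 CPM and from 1.88 to 4.85 CPM (-0.10, SE 0.33). Clec4f, Vsig4, Cd5l and Marco had at most 14 counts in a kidney. Timd4 had 2, 0, 2 and 0 counts in vehicle kidneys and up to 10 in 7c kidneys, 4 of which were above the vehicle range in CPM (exact permutation p = 0.181, two-sided, 0.930 adjusted over the 20). These few counts came mostly in even numbers, as low counts did in general, so they may hold fewer independent observations than their number.

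Some markers of other cell types leaned 1 way with treatment in kidney, with 0 called by edgeR. All 8 listed fat cell genes were above 0 there (median log2 fold change 2.26, 7 with an unadjusted p under 0.05), and all 7 tested hepatocyte genes were below 0 (median -0.94, 3 with an unadjusted p under 0.05). DESeq2 called 2 of the fat cell genes, Cidec and Adrb3, and the likelihood ratio test called Cidec. Of 6 red blood cell genes 5 were above 0 (median 0.82, 0 with an unadjusted p under 0.05), and in liver 4 of 5 (median 0.79, and 0.67 without 7c animal 6). The fat cell list summed to 836 to 1449 CPM in vehicle and 879 to 1913 CPM in 7c kidneys, a sum led by Pck1, which tubules express. The part of such cells in the C1qc and Csf1r values was not tested.

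Whether the effect of 7c differed between organs was tested as an interaction on the 5 genes that passed in both. None was called, where 0.00706% of 14163 genes were called (1 gene) and 353 had an unadjusted p under 0.05. The differences (effect in liver minus effect in kidney, log2) ran from -0.31 (SE 0.42) for C1qc to 0.24 (SE 0.52) for Adgre1, with C1qc at -0.60 without 7c animal 3 and -0.12 without 7c animal 5, and 0 of the 5 had an unadjusted p under 0.05. DESeq2 and the likelihood ratio test called 16 and 22 genes, and limma-voom 0, none of the 5 among them.

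Most of these genes varied more between animals than the median gene did. Over the 10 livers, regardless of treatment, the SD of log2 CPM was 0.46 for C1qb to 0.78 for Vsig4, and 1.73 for Marco, against a median of 0.30 over all tested genes. Between 66.9% and 84.5% of tested genes had a smaller SD than C1qb and Vsig4, respectively. Without 7c animal 6 the SDs were 0.39 for C1qa to 0.62 for Adgre1, with Vsig4 at 0.49 and Marco at 1.53, and the median over all genes was 0.30. In kidney, Csf1r was among the steadier genes, with an SD of 0.16 against a median of 0.35, while C1qa, C1qb, C1qc and Adgre1 had 0.45 to 0.55. Kidney Csf1r differed 1.47-fold between its highest and lowest animal on jointly scaled CPM, and liver Csf1r 3.41-fold, or 2.72-fold without 7c animal 6.

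Apart from Marco, the liver genes mostly rose and fell together between animals. The livers of vehicle animal 1 and 7c animal 6 were the lowest pair for 7 of the 10 genes, and vehicle animal 1 was the lowest vehicle liver for 9 of them. Summed over the 10 genes, these livers had 150 and 119 CPM, and the other 8 had 214 to 396 CPM. The low livers belonged to different groups, and each group also had a high one, vehicle animal 2 at 396 CPM and 7c animal 3 at 381 CPM.

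**Figure D4:**
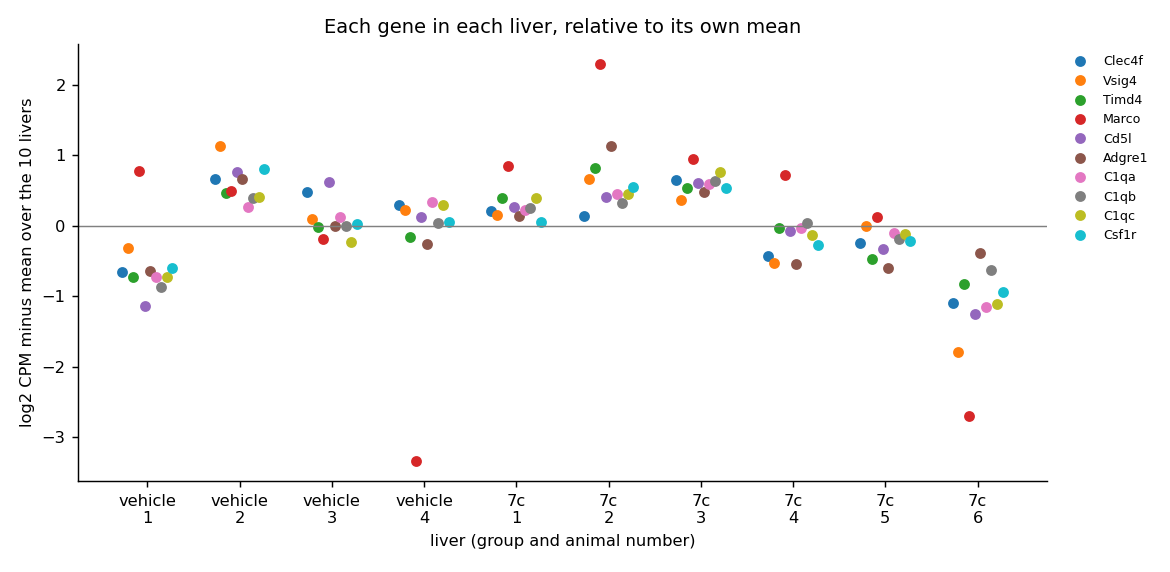
log2 CPM of each gene in each of the 10 livers, minus that gene's mean over the 10 (points coloured by gene; the animal numbers are names only). All 10 genes lie below 0 in 7c animal 6 and all but Marco in vehicle animal 1, and Marco scatters more than the rest.

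Correlations were computed over the 10 samples of a tissue on log2 CPM for the 45 pairs in liver and 10 pairs in kidney of genes that passed the filter, and p was adjusted over the 55. In liver, the 36 pairs without Marco had Pearson r between 0.64 and 0.96 (median 0.87), and 33 of them passed by permutation test. After each treatment group was centred the median was 0.90, without 7c animal 6 it was 0.83, and without the 2 animals farthest from the median it was 0.76. The 9 pairs with Marco had r between 0.27 and 0.59 (median 0.41), and 0 passed. Without 7c animal 6 their median was 0.10. Genes within a library share its depth and scaling, so a part of these correlations can come from the library.

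Among Kupffer cell genes, Clec4f was most like Cd5l (r = 0.95, permutation p = 7.00e-05, adjusted 0.000962; Spearman rho = 0.93, permutation p = 0.000280, adjusted 0.00397). It followed Vsig4 with r = 0.87 (permutation p = 0.000620, adjusted 0.00201) and rho = 0.83 (permutation p = 0.00486, adjusted 0.0105). With Timd4 it had r = 0.78 (permutation p = 0.00837, adjusted 0.0144) and rho = 0.71 (permutation p = 0.0272, adjusted 0.0415), and the r was 0.49 without the 2 animals farthest from the median, 0.68 without 7c animal 6, and 0.88 after each treatment group was centred. With Marco it had r = 0.27 (permutation p = 0.456, adjusted 0.473) and rho = 0.09 (permutation p = 0.812, adjusted 0.827), and r was -0.15 without 7c animal 6. Without the 2 farthest animals r was 0.89 for Cd5l and 0.73 for Vsig4.

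The C1q chains, whose proteins assemble into 1 molecule, were tied in both organs. In liver, C1qa and C1qc had r = 0.96 (permutation p = 4.00e-05, adjusted 0.000733) and rho = 0.92 (permutation p = 0.000500, adjusted 0.00397). C1qb had r = 0.93 with C1qc (permutation p = 0.000210, adjusted 0.00128; rho = 0.92, permutation p = 0.000530, adjusted 0.00397) and r = 0.92 with C1qa (permutation p = 0.000700, adjusted 0.00207; rho = 0.87, permutation p = 0.00202, adjusted 0.00617). In kidney, C1qa and C1qb had r = 0.97 (permutation p = 2.00e-05, adjusted 0.000733) and ranked the 10 animals identically (rho = 1, permutation p = 2.00e-05, adjusted 0.00110). C1qc had r = 0.88 with C1qa (permutation p = 0.00126, adjusted 0.00315; rho = 0.92, permutation p = 0.000650, adjusted 0.00397) and r = 0.86 with C1qb (permutation p = 0.00184, adjusted 0.00389; rho = 0.92, permutation p = 0.000650, adjusted 0.00397).

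Leaving out the 2 animals farthest from the median left these C1q pairs at r = 0.85 or above in liver and 0.92 or above in kidney. As CPM ratios, C1qc over C1qa was 0.776 ± 0.0802 in liver and 0.649 ± 0.0975 in kidney, and C1qb over C1qa was 0.821 ± 0.139 and 0.963 ± 0.0818 (SD, n = 10 each). In liver the SD of C1qb over C1qa was 16.9% of its mean, near the 16.4% of Cd5l over Clec4f. That of C1qc over C1qa was 10.3%.

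In kidney, the relations of Adgre1 and Csf1r with the other genes changed with the animals and the centring used. Adgre1 had r of -0.43 to -0.15 with the other 4, and Csf1r had r of 0.07 to 0.40 with the C1q genes, and 0 of these 7 pairs passed by permutation test. Without the 2 animals farthest from the median, the Adgre1 pairs turned to between 0.19 and 0.42. After each treatment group was centred, Csf1r had r of 0.70 with C1qa (permutation p = 0.0254, adjusted 0.0358), 0.76 with C1qb (permutation p = 0.00848, adjusted 0.0137) and 0.55 with C1qc (permutation p = 0.0993, adjusted 0.124). Without the 2 farthest animals and uncentred, these pairs had r of -0.04, -0.15 and 0.06. In liver the same 7 pairs had r of 0.64 to 0.91. The difference between the organs in these correlations was not tested.

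**Figure D5:**
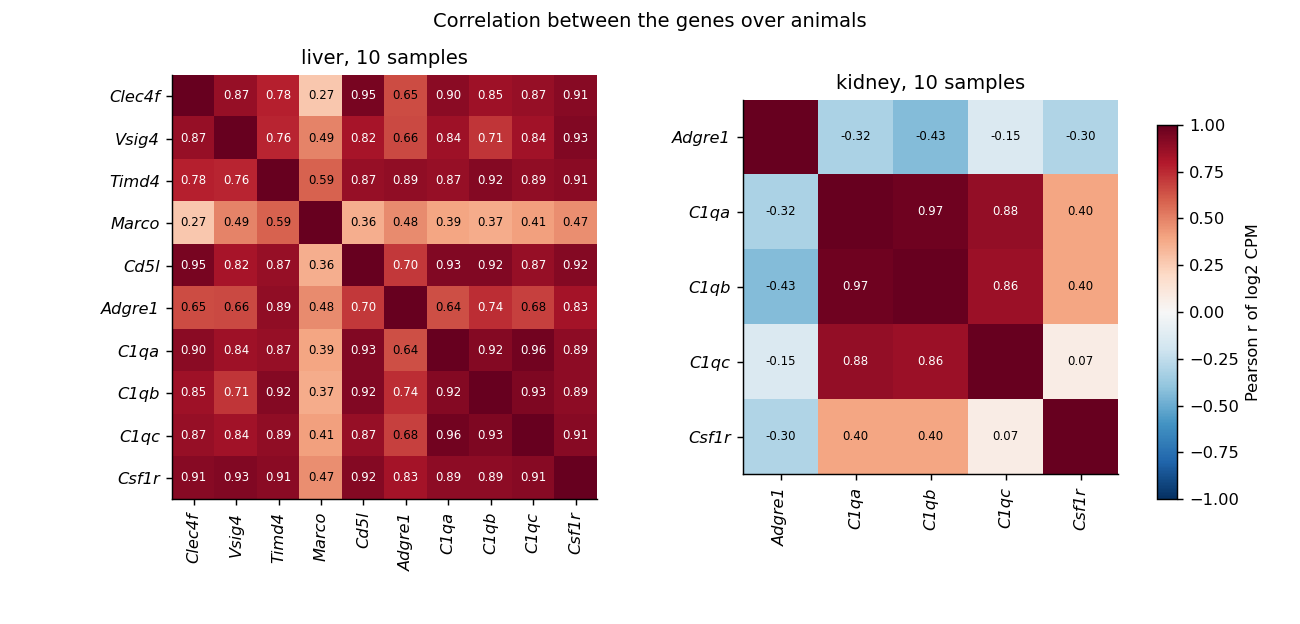
Pearson r of log2 CPM between genes over the 10 livers (left) and the 10 kidneys (right, the 5 genes tested there), printed in each cell and coloured from -1 to 1. In liver every pair without Marco is at 0.64 or above, and in kidney the C1q pairs are at 0.86 or above and all other pairs at 0.40 or below.

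Outside the 10, the genes whose pattern over animals was most like a member were taken by Pearson r over 10 samples, after each treatment group was centred. On the same measure, some of the 10 were as near, such as C1qb (0.96), Cd5l (0.96) and C1qa (0.94) to Clec4f in liver, C1qc to C1qa in liver (0.97) and C1qb to C1qa in kidney (0.97). For Clec4f in liver the nearest other genes were Fcgr4 (0.97), an Fc receptor of myeloid cells, Cd55os (0.97), a noncoding gene, Ing5 (0.94), Ckb (0.93), brain-type creatine kinase, and Mrc1 (0.93). Cd55os rests on 2 to 23 counts per liver. For C1qa in liver the nearest others were Abcg3 (0.97), Adora2a (0.96), an adenosine receptor, Siglece (0.95), a sialic acid receptor of myeloid cells, Adgre4 (0.95), a relative of Adgre1, and Cd55os (0.94).

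For C1qa in kidney the nearest others were Slc48a1 (0.98), a haem transporter, Mcub (0.97), Cmc2 (0.96), Cnn2 (0.96) and Coa8 (0.96). These levels of likeness were rarer in liver than in kidney as a description. An r over 0.9 was reached by 27 and 37 of 15011 other genes for Clec4f and C1qa in liver, and by 256 of 17748 for C1qa in kidney.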

How the data were processed

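RNA of 10 livers and 10 kidneys was measured in 20 libraries. Polyadenylated RNA had been made into stranded libraries. The deposited values are raw counts per gene, which the authors obtained with STAR 2.7.11b on GRCm39 and featureCounts 2.0.6 and did not normalise. The annotation release and the counting options are not given in the sources used here. Of counts between 1 and 20, 78.6% were even, for a reason not given in the sources used here, so low counts may hold fewer independent observations than their number. Ensembl identifiers were joined to GENCODE vM39 (56310 of 57010 matched, and 0.0417% of counts lay outside).

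A gene was tested in a tissue where at least 50% of its samples had 10 counts or more, the filter of the published methods (15012 genes in liver, 17749 in kidney, 14163 for the interaction and 18598 between tissues). The quasi-likelihood test of edgeR 4.0.16 (R 4.3.3) with TMM was applied to each tissue with a single treatment term, and p was adjusted by Benjamini-Hochberg at 0.05. CPM were TMM-scaled within a tissue, or over both where said, and log2 CPM used a prior count of 2. Exact permutation tests covered 210 relabellings and correlations 100000 permutations (scipy 1.17.1, numpy 2.4.6). Of 90 planned gene pairs, 55 were computed, since 5 genes failed the filter in kidney. Library totals set the counting error, and intervals and limits for counts cover that error only, not the spread between animals.

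The 10 genes, the 16 lists of other genes and the tests were chosen with earlier results of these data known. All 10 genes were named, and from each list up to 5 genes past the threshold by p, or else up to 3 of highest mean CPM. Some genes within that rule were left unnamed for length, and Csf1 between tissues was added for its role as a ligand. Alternatives were other size factors (RLE), other tests (DESeq2 1.42.0, limma-voom with limma 3.58.1, likelihood ratio), other filters (none, filterByExpr), a replicate block, a joint fit of both tissues, and each animal left out. Raw library totals between tissues and canonical transcript lengths were added after seeing the data. Within a tissue, samples are separate animals by their labels. Each of the 10 mice gave both organs, and the tests between tissues treated the 20 libraries as independent, with the block by number as the alternative. The scripts were tested on simulated data.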

Additional observations from a re-analysis of the deposited data

Results flagged for a closer look

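One of 30 groups of values, each a gene in the animals of 1 tissue and treatment, held a sample far from the others. In 7c liver, Marco was at 3.15 CPM in animal 2, while the other 5 were between 0.0361 and 1.20 CPM, a gap of 0.628 of the whole range. At the nominal rate of this gap rule, chance alone marks about 1 in 20 such groups. The cause was not tested.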

How the results depend on the processing

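No gene of the 10 was called for 7c under the alternatives in which it was tested. All 10 had 18 alternatives in liver, and 5 had 18 in kidney and 16 or 17 for the interaction. Of the other 5, 4 had 1 alternative in kidney, Marco had none there, and all 5 had 2 for the interaction. Between tissues all 10 were called under every alternative but vehicle samples alone, where 9 were (Csf1r -0.61). Counts over all genes moved: with DESeq2, the likelihood ratio test, no filter and filterByExpr, 6, 7, 4 and 2 genes were called in liver in place of 1, and 18, 14, 3 and 0 in kidney in place of 0. For the interaction these were 16, 22, 11 and 4 in place of 1. Limma-voom called 2 genes in kidney and 0 for the interaction, and a joint fit of both tissues 4 in liver and 18 in kidney.

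Within a tissue the replicate block rests on numbers that both groups have, so 7c animals 5 and 6 do not inform its 7c effect. Blocking and the loss of these animals cannot be told apart in the shifts below. The replicate block turned Cd5l to 0.20 and Csf1r to 0.15 in liver and called 0 genes in liver and for the interaction. It moved the median of the 10 genes in liver from 0.09 to 0.34, with 8 of 10 above 0, and Marco from 0.98 to 1.77, while the median of all genes stayed at 0.00. Between tissues all 10 genes were called with it (Csf1r -0.64). Samples of 7c and vehicle with the same number deviated with r of -0.05 to 0.03 in liver and -0.03 to 0.21 in kidney. Between liver and kidney it was 0.01 to 0.26, over 0.1 in 7 of 10 and best with its own number in 8 of 10. This is a hint from the data that a number may mark 1 mouse in both organs, which the labels do not state.

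With 1 animal left out, log2 fold changes in liver ran from -0.52 to -0.15 for Clec4f (without vehicle animals 1 and 2), -0.58 to -0.028 for Vsig4 (7c animal 2, vehicle animal 2), 0.058 to 0.46 for Timd4 (7c animal 2, vehicle animal 2) and 0.41 to 1.38 for Marco (7c animal 2, vehicle animal 1). Signs of the smaller ones turned. In liver the ranges were -0.48 to 0.017 for Cd5l, -0.14 to 0.46 for Adgre1, -0.15 to 0.20 for C1qa, -0.030 to 0.35 for C1qb, -0.034 to 0.31 for C1qc and -0.30 to 0.19 for Csf1r. Vehicle animals 1 and 2 set these ends, except the lower end of Adgre1 (without 7c animal 2) and the upper end of C1qa (without 7c animal 6). In kidney they were -0.29 to 0.14 for Adgre1 and -0.013 to 0.49 for C1qa, set by vehicle animals 2 and 3 and 7c animal 5, while C1qb ran from 0.039 to 0.55 (7c animal 5, vehicle animal 2), C1qc from 0.30 to 0.57 and Csf1r from -0.25 to -0.12 (vehicle animals 3 and 2). An unadjusted p under 0.05 was reached there by C1qc without 7c animal 3, C1qb without vehicle animal 2 and Csf1r without vehicle animal 3. Over all tested genes, such a p was reached by 769 of 17518, 1801 of 17514 and 388 of 17493 in these refits. With all kidneys it was 463 of 17749. For the interaction the ranges were -0.0013 to 0.77 for Adgre1, -0.39 to 0.082 for C1qa, -0.28 to 0.17 for C1qb, -0.60 to -0.12 for C1qc and -0.084 to 0.32 for Csf1r, set by vehicle animals 2 and 3 and 7c animals 3 and 5.

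TPM of C1qb rose to 18.1 in liver and 11.3 in kidney with the canonical transcript length. TPM of Csf1r in kidney was 31.2 with the longest and 25.7 with the canonical transcript. Without a filter, 4 of the 5 genes that failed it in kidney could be fitted for 7c, with wide errors: Clec4f -0.85 (SE 1.63), Vsig4 0.80 (SE 1.33), Timd4 2.31 (SE 1.38) and Cd5l -0.39 (SE 1.50), with adjusted p of 0.777 to 0.976 by edgeR. Marco had 0 counts there.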
